A study of Mus musculus with 28 samples.

Results

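Livers of Fah-/- mice that received no NTBC were set against livers of Fah-/- mice kept on a reduced dose of NTBC, over all genes of the array. The comparison holds 8 of the 28 arrays of the study, 4 with no NTBC and 4 on the reduced dose, chosen by genotype and dose in the sample labels. The mice of both groups lack fumarylacetoacetate hydrolase (Fah) and carry no other knockout. Fah-/- livers on full NTBC, 7.5 mg/L in the drinking water, are the third dose of this genotype and serve as a point of orientation. The other arrays are of Fah-/- mice that also lack p53 (all 3 doses) or p21 (no NTBC). The sample labels give the reduced dose as 25% of the full one, and the design and treatment notes as 2.5% for 3 months, and the term reduced dose stands for either. The sources used here give neither the time since NTBC was withdrawn nor the ages of the mice. No liver with intact Fah was analysed here. Ddx3y, a transcript of the Y chromosome, was well above background by both its probes on all 8 arrays. None of the 4 probes for Xist, the RNA of the silenced X of females, was, except for 1 on replicate 2 with no NTBC, so both groups read as male.

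Fah is the last enzyme of tyrosine breakdown. Without it fumarylacetoacetate and maleylacetoacetate, which react with thiols and proteins, build up in hepatocytes and in the proximal tubules of the kidney, and succinylacetone is formed from them. NTBC (nitisinone) blocks Hpd, an earlier enzyme of the same pathway, so that these compounds are not made, and taking it away from a Fah-null mouse is a standard model of hereditary tyrosinemia type I. Electrophiles of this kind are known to act on KEAP1, the protein that holds down the transcription factor NRF2, and to deplete glutathione.

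One array was hybridised per sample, and a level is the log2 of the processed signal minus that of the array's 75th percentile, so that 0 is the 75th percentile. Differences are no NTBC minus reduced NTBC on this log2 scale, with the standard error (SE) of a limma fit, and n = 4 arrays per group throughout. Genes with a limma p under 0.05 after Benjamini-Hochberg adjustment over all 20302 genes tested were called, and "rose" and "fell" are used of these. Whether the 4 samples of a group are separate animals is not stated. The p-values rest on the spread within groups, pooled over the 7 groups of all 28 arrays, which may be technical. Of these groups Fah-/- p21-/- with no NTBC read as female on replicates 1 and 2 and as male on 3 and 4. The SE of sex-biased genes can therefore hold a difference between the sexes. The 4 arrays with no NTBC lay on 2 slides read on 2 scan days, and the 4 on the reduced dose on 1 other slide and day. No slide or scan day held more than 1 dose, so dose and scan day cannot be told apart. With either slide of the no-NTBC arrays alone against the reduced arrays, 4503 and 4254 genes were called higher and 6882 and 6810 lower.

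Most of the measured transcriptome differed between no and reduced NTBC. Of the genes tested 13033 (64.2%) were called, 5207 (25.6%) higher with no NTBC and 7826 (38.5%) lower, with a median difference over all genes of -0.16. On 11745 genes (57.9%) the 4 arrays of one group all lay on one side of the 4 of the other. By at least 2-fold 2359 were called higher and 3562 lower, and by at least 8-fold 287 and 167. Against full NTBC 70.7% of the genes were called with no NTBC and 39.5% on the reduced dose. Since so many genes were called, each group of genes below is given with its own counts, and some with a median, to be read against these shares.

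The scale touches all of these counts. The arrays with no NTBC were brighter, with a 75th percentile of 490 to 602 intensity units against 340 to 377 on the reduced dose, so that the lowest level well above background was -5.89 to -5.38 with no NTBC and -4.66 to -4.47 on the reduced dose. Of 480 genes below background on all 8 arrays, 350 were called lower and 2 higher, with a median of -1.30, and their differences are not read as changes of level. Quantile normalization moved the median difference over all genes to -0.01, and the calls to 6285 higher and 6502 lower. The falls of plasma protein and respiratory chain transcripts were smaller on that scale, which is given beside several of the lists it alters. Another background correction, normexp, lowered many counts of small levels, and its values are likewise given beside several of the lists they moved.

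**Figure D1:**
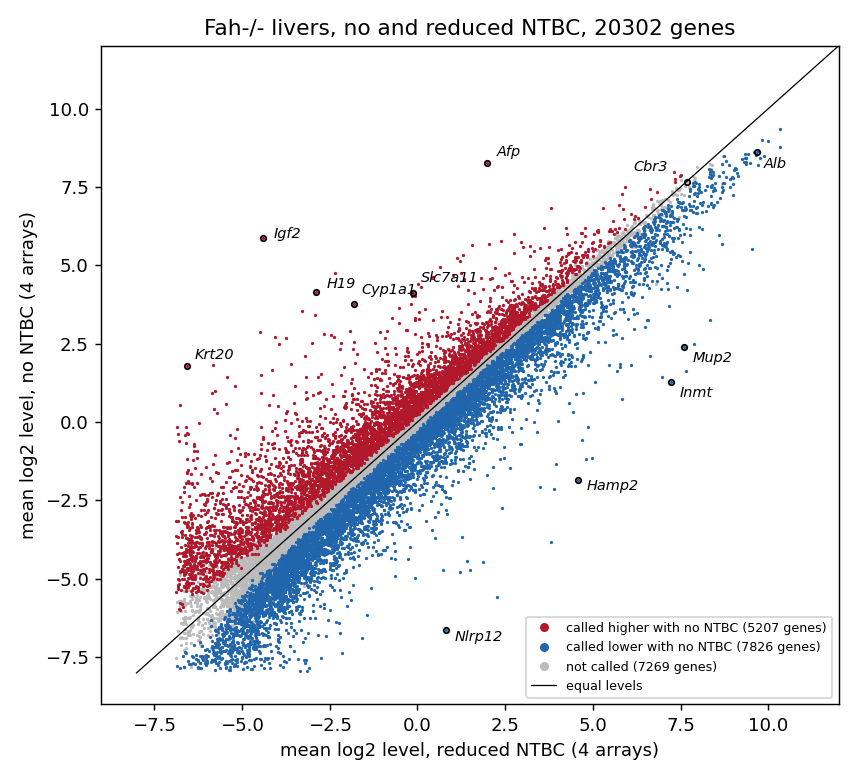
Mean log2 level of each of 20302 genes with no NTBC (vertical axis) against the reduced dose (horizontal axis), 4 arrays each. Red points are the 5207 genes called higher and blue points the 7826 called lower with no NTBC; Igf2, H19 and Afp lie far above the line of equal levels, Mup2, Inmt and Hamp2 far below it, and Cbr3 on it.

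The enzymes of tyrosine breakdown were lower with no NTBC, 8 of 8, with a median of -1.17. Hpd, the target of the drug, had levels of 4.03, 4.96, 5.23 and 4.83 with no NTBC, against 6.24, 6.40, 6.63 and 6.71 on the reduced dose and 7.61, 7.64, 7.54 and 7.86 on the full dose. It fell by 1.73 ± 0.22 (3.32-fold, limma adjusted p = 4.76e-07), and the 3 doses did not overlap. Tat, tyrosine aminotransferase, which starts the pathway, fell by 1.20 ± 0.26. Qdpr, which regenerates the cofactor tetrahydrobiopterin, fell by 1.15 ± 0.17. The probe for Fah itself gave signal on every array, -2.76, -2.03, -1.99 and -1.88 with no NTBC and -0.15, -0.13, -0.14 and -0.01 on the reduced dose. Where this probe lies relative to the disrupted part of the gene is not given, so it does not check the genotype, and its fall of 2.06 ± 0.21 concerns the remaining transcript.

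Amino acid breakdown and the urea cycle showed the same direction, with 35 of 41 measured members lower, 0 higher, and a median of -1.42. Gls2, the liver glutaminase, had levels of 2.66, 3.01, 3.71 and 3.61 with no NTBC, against 6.62, 6.62, 6.63 and 6.38 on the reduced dose. It fell by 3.31 ± 0.32 (9.94-fold, limma adjusted p = 9.86e-09). Hal, Amdhd1 and Uroc1, which break down histidine, fell by 3.03 ± 0.36, 2.93 ± 0.30 and 2.80 ± 0.26. Prodh, proline dehydrogenase, fell by 2.66 ± 0.36. Cps1, the entry enzyme of the urea cycle, stood at 4.09, 4.56, 4.68 and 4.77 with no NTBC and at 5.90, 6.25, 6.20 and 6.18 on the reduced dose, a fall of 1.61 ± 0.21 (limma adjusted p = 5.53e-07).

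**Figure D2:**
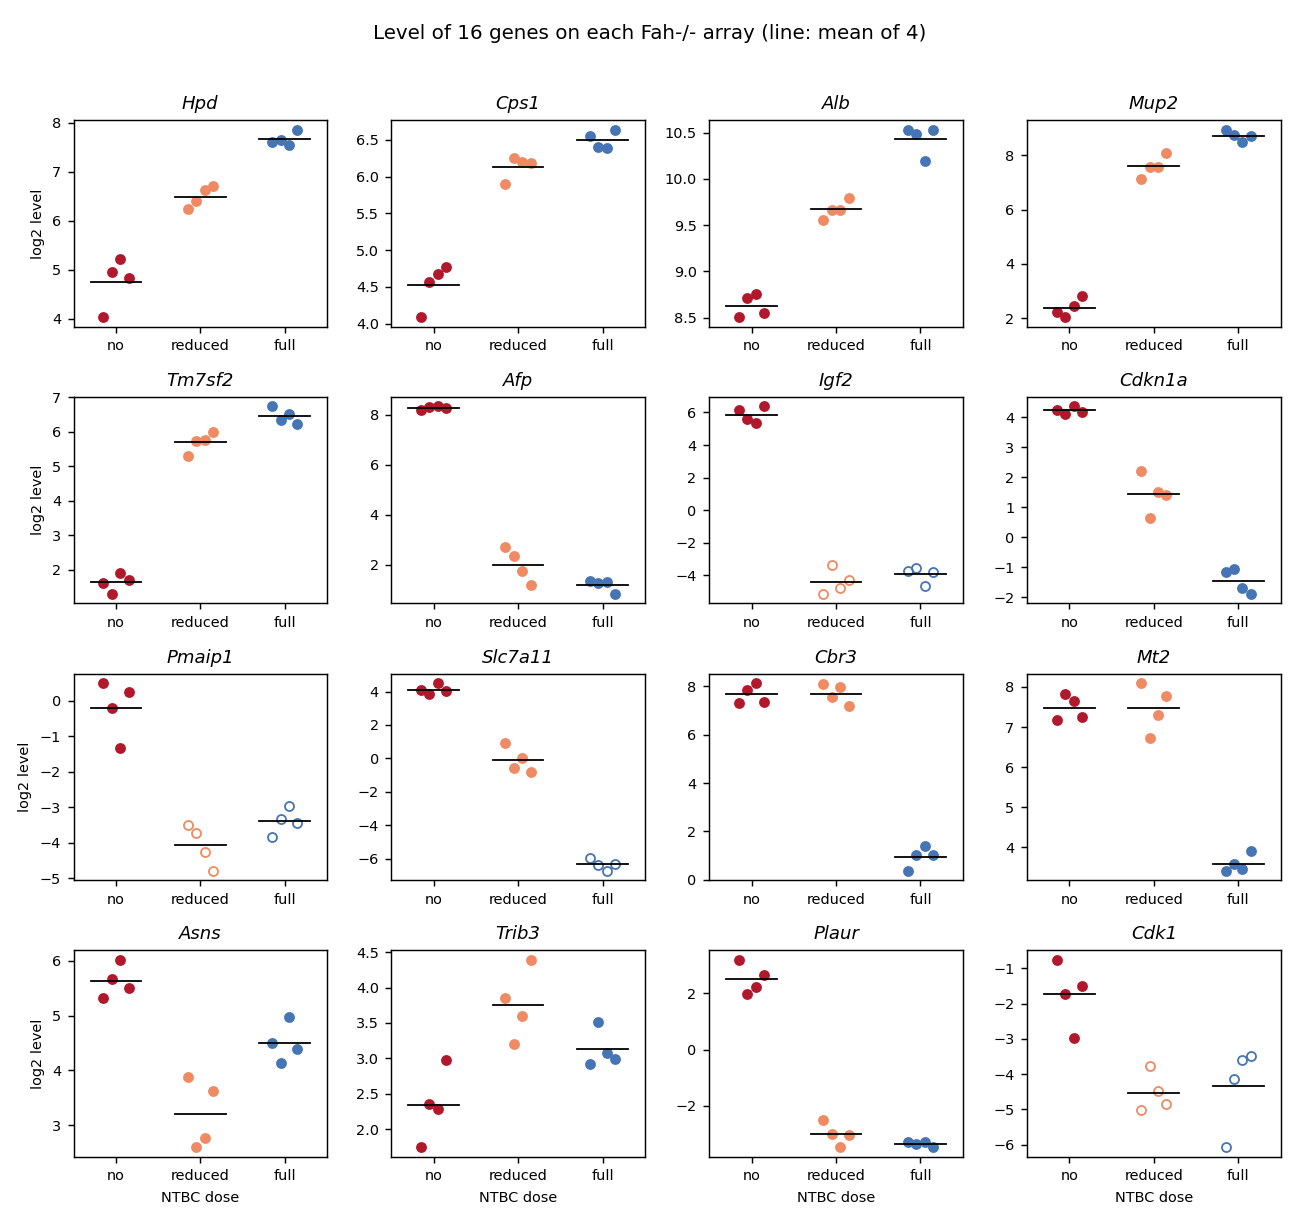
Log2 level of 16 genes on each Fah-/- array with no, reduced and full NTBC (4 arrays a dose, line at the mean; open circles where the probe was not well above background on all 4 arrays of that dose). Hpd, Cps1, Alb, Mup2 and Tm7sf2 are lowest with no NTBC; Afp, Igf2, Pmaip1 and Plaur are high only there; Cbr3 and Mt2 overlap between no and reduced NTBC and lie above full NTBC on both.

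Transcripts of secreted plasma proteins were lower as well: 41 of 44 measured members fell and 1 rose, with a median of -1.31. On the quantile scale 27 were called lower and the median was -0.65. Alb, serum albumin, had levels of 8.50, 8.71, 8.76 and 8.55 with no NTBC, against 9.55, 9.67, 9.66 and 9.80 on the reduced dose. Its fall of 1.04 ± 0.10 (limma adjusted p = 4.46e-09) became a difference of 0.05 on the quantile scale and in the deposited values, where it was not called, so the direction of Alb rests on the scaling. The complement genes C8b, C8a and C9, whose products form the membrane attack complex, fell by 4.26 ± 0.43, 2.94 ± 0.44 and 2.76 ± 0.55. F7, coagulation factor VII, had levels of -1.59, -1.25, -1.15 and -0.73 with no NTBC and 1.92, 2.37, 2.44 and 2.65 on the reduced dose (11.5-fold lower, limma adjusted p = 3.28e-13). Among acute phase proteins 16 of 27 fell and 3 rose. On the quantile scale 6 of this list rose and its median was -0.10, and in the deposited values 10 members were called lower. Saa2, Saa1 and Orm3 fell by 3.65 ± 0.59, 1.83 ± 0.53 and 3.41 ± 0.70. Lcn2, the iron-carrier binding lipocalin, went the other way, at 0.64, 0.96, 0.95 and 1.15 with no NTBC and -2.74, -3.47, -2.60 and -2.53 on the reduced dose, a rise of 3.76 ± 0.52 (limma adjusted p = 1.64e-06). Il1rn, the interleukin 1 receptor antagonist, rose by 2.98 ± 0.36.

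Lipid synthesis was lower in most of its enzymes. In cholesterol synthesis 21 of 26 members fell and none rose, with a median of -1.17. Tm7sf2, a sterol reductase, had levels of 1.63, 1.30, 1.92 and 1.69 with no NTBC, against 5.29, 5.73, 5.76 and 5.99 on the reduced dose, a fall of 4.06 ± 0.23 (16.7-fold, limma adjusted p = 4.63e-12). Sc5d, the sterol desaturase of the same pathway, and Insig1, which holds back processing of the sterol regulators SREBP, fell by 2.86 ± 0.24 and 2.30 ± 0.22. In fatty acid synthesis 20 of 26 fell. Scd1, stearoyl-CoA desaturase, stood at 1.13, 1.54, 1.67 and 0.79 with no NTBC and 4.90, 5.31, 5.29 and 4.69 on the reduced dose (13.6-fold lower, limma adjusted p = 6.14e-07). Thrsp and Acaca, acetyl-CoA carboxylase, fell by 3.97 ± 0.90 and 1.86 ± 0.15. G6pdx, which makes NADPH in the pentose phosphate pathway, rose by 2.77 ± 0.32.

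Fatty acid oxidation and PPARA targets were mixed, 21 of 41 lower and 7 higher, and 11 higher on the quantile scale. Ppara itself fell by 1.19 ± 0.18. The lipid droplet protein Cidec had levels of 6.25, 5.91, 5.99 and 5.81 with no NTBC, against 3.57, 2.51, 2.63 and 2.25 on the reduced dose, and rose by 3.25 ± 0.25 (limma adjusted p = 3.49e-10). Cidea, its relative in lipid droplets, rose by 6.44 ± 0.55, and the mitochondrial carrier Ucp2 by 2.40 ± 0.14.

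Genes of glucose handling moved in both directions. Of 18 genes of gluconeogenesis and glycogen 14 fell and 3 rose, with a median of -1.41. Fbp1, fructose bisphosphatase, was at 5.52, 6.08, 6.11 and 6.14 with no NTBC and 8.40, 8.63, 8.61 and 8.73 on the reduced dose (6.19-fold lower, limma adjusted p = 2.81e-11). Pygl, liver glycogen phosphorylase, and Slc2a2, the liver glucose transporter, fell by 2.17 ± 0.26 and 2.14 ± 0.39. Among glycolytic genes of fetal and general tissues 10 of 23 rose and 4 fell. The number that rose was 17 on the quantile scale, 5 with normexp and 6 without replicate 2 with no NTBC. Pkm, the pyruvate kinase of most tissues outside liver, had levels of 2.63, 2.27, 2.19 and 2.38 with no NTBC, against -0.91, -1.08, -0.82 and -0.88 on the reduced dose, a 9.77-fold rise (limma adjusted p = 4.63e-12). The hexokinases Hk2 and Hkdc1 rose by 1.81 ± 0.39 and 6.44 ± 0.61, and the glucose transporter Slc2a1 by 1.32 ± 0.12. Pdk1, a kinase that switches off pyruvate dehydrogenase, fell by 3.62 ± 0.29.

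Subunits of the respiratory chain were lower in 42 of 47 cases and higher in 1, with a median of -0.75. This list depends on the scale, since with quantile normalization 22 were called lower and 3 higher and the median was -0.19. With normexp 28 were called lower and the median was -0.65. Uqcrq, a subunit of complex III, stood at 6.64, 6.93, 7.27 and 6.83 with no NTBC and 8.40, 8.47, 8.52 and 8.40 on the reduced dose, a fall of 1.53 ± 0.12. Ndufv1 of complex I and Cox6c of complex IV fell by 1.33 ± 0.14 and 1.32 ± 0.12.

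In drug and bile acid metabolism most genes were lower and a few higher. Of 35 cytochrome P450 genes 26 fell and 4 rose, with a median of -1.12. On the quantile scale 20 fell and 5 rose, with a median of -0.50. Cyp2c54 and Cyp2c37 fell by 6.34 ± 0.56 and 5.01 ± 0.49. Cyp1a1, the classical target of the aryl hydrocarbon receptor, had levels of 3.51, 3.92, 3.74 and 3.86 with no NTBC, against -1.10, -1.84, -1.55 and -2.68 on the reduced dose and -3.59, -3.63, -3.08 and -3.0 on the full dose. It rose by 5.55 ± 0.31 (46.8-fold, limma adjusted p = 2.94e-12). Cyp2s1, another target of that receptor, rose by 6.32 ± 0.42. In bile acid synthesis and transport 20 of 29 fell and 2 rose. Cyp7b1 of the alternative synthesis pathway, the bile salt export pump Abcb11 and the uptake carrier Slco1b2 fell by 3.16 ± 0.28, 2.41 ± 0.26 and 2.91 ± 0.60. Cyp7a1, the rate-limiting enzyme of the classical pathway, overlapped between the groups, at 0.46, 2.57, 1.22 and 2.65 with no NTBC and 2.19, 3.22, 1.98 and 1.78 on the reduced dose, and was not called (-0.57 ± 0.54, limma adjusted p = 0.366). A second Cyp7a1 probe, above background on all arrays of both doses, differed by -1.32 and was not tested alone.

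Among hepatocyte transcription factors 17 of 26 fell and 3 rose. With normexp 10 fell. The nuclear receptors Nr1i3 (CAR) and Nr5a2 (LRH-1) fell by 1.81 ± 0.21 and 1.42 ± 0.15. Hnf4a, a regulator of hepatocyte identity, stood at 2.92, 2.76, 3.21 and 3.03 with no NTBC and 3.15, 3.23, 3.37 and 3.54 on the reduced dose, so the groups overlapped. Its fall of 0.34 ± 0.12 (limma adjusted p = 0.0192) lost the call under 7 alternatives, quantile normalization and normexp among them. Other Hnf4a probes, above background on all arrays of both doses, differed by -0.25 and -1.11, so the size of the fall depends on the probe.

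Liver genes that differ between the sexes and follow growth hormone were among the largest falls. Of 21 male-biased transcripts 19 fell and 1 rose, with a median of -1.56. On the quantile scale 14 fell, with a median of -1.18. Mup2, a major urinary protein, had levels of 2.24, 2.03, 2.44 and 2.81 with no NTBC, against 7.14, 7.59, 7.58 and 8.07 on the reduced dose (37.1-fold lower, limma adjusted p = 0.000597). Mup genes are near-identical copies, and Mup2, Mup6 and Mup1 may share signal. Elovl3, a male-biased fatty acid elongase, was at -6.87, -4.39, -4.08 and -4.54 with no NTBC, -1.43, 0.29, -0.25 and 1.18 on the reduced dose and 4.93, 4.56, 4.50 and 3.98 on the full dose, with 3 of the 4 no-NTBC arrays above background. Hsd3b5, another male-specific enzyme, was at -4.48, -5.01, -7.91 and -4.09 with no NTBC, -4.66, -0.66, -3.40 and -0.08 on the reduced dose and 6.22, 5.72, 5.59 and 5.58 on the full dose. It fell by 7.98 ± 0.78 on the reduced dose relative to the full dose. With no NTBC it fell by 3.17 ± 0.78 more, and the arrays overlapped with those of the reduced dose. The levels -7.91 with no NTBC and -4.66 on the reduced dose lay under the lowest measured level of their arrays (-5.765 and -4.552). This difference between no and reduced NTBC was -1.69 with normexp and -1.20 in the deposited values. The female-biased Cyp2b9 was high on the reduced dose alone, at -0.49, 0.68, 0.40 and 0.70 with no NTBC, 3.92, 3.48, 5.49 and 4.81 on the reduced dose and 0.91, 0.67, 0.42 and 1.10 on the full dose. Over the 28 female-biased transcripts 14 fell and 4 rose. The growth hormone receptor Ghr fell by 2.66 ± 0.14 and the IGF1 carrier Igfals by 3.30 ± 0.36. Igf1 fell by 1.47 ± 0.38.

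Some other large falls belonged to transport, conjugation and iron handling. Hamp2, a relative of the iron hormone hepcidin, had levels of -2.02, -1.86, -1.77 and -1.70 with no NTBC, against 3.69, 4.48, 5.09 and 5.01 on the reduced dose (84.7-fold lower, limma adjusted p = 5.12e-09). Inmt and Nnmt, which methylate amines and nicotinamide, fell by 5.96 ± 0.54 and 5.24 ± 0.51. Pigr, which carries IgA into bile, fell by 5.99 ± 0.68 and the sulfotransferase Sult5a1 by 6.22 ± 0.68. Nlrp12 was lower by the probe used, which was above background on no array with no NTBC (-5.91, -6.67, -7.69 and -6.24) and on all 4 of the reduced dose (0.21, 0.15, 1.30 and 1.56). Its second probe was not above background on the reduced dose and differed by -0.23, so the fall rests on 1 probe. In heme and iron handling 15 of 29 fell and 5 rose (9 and 8 on the quantile scale), among them Tfr2, transferrin receptor 2, by 2.18 ± 0.18, and in the other direction Bmp6, which induces hepcidin, by 2.05 ± 0.21.

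**Figure D3:**
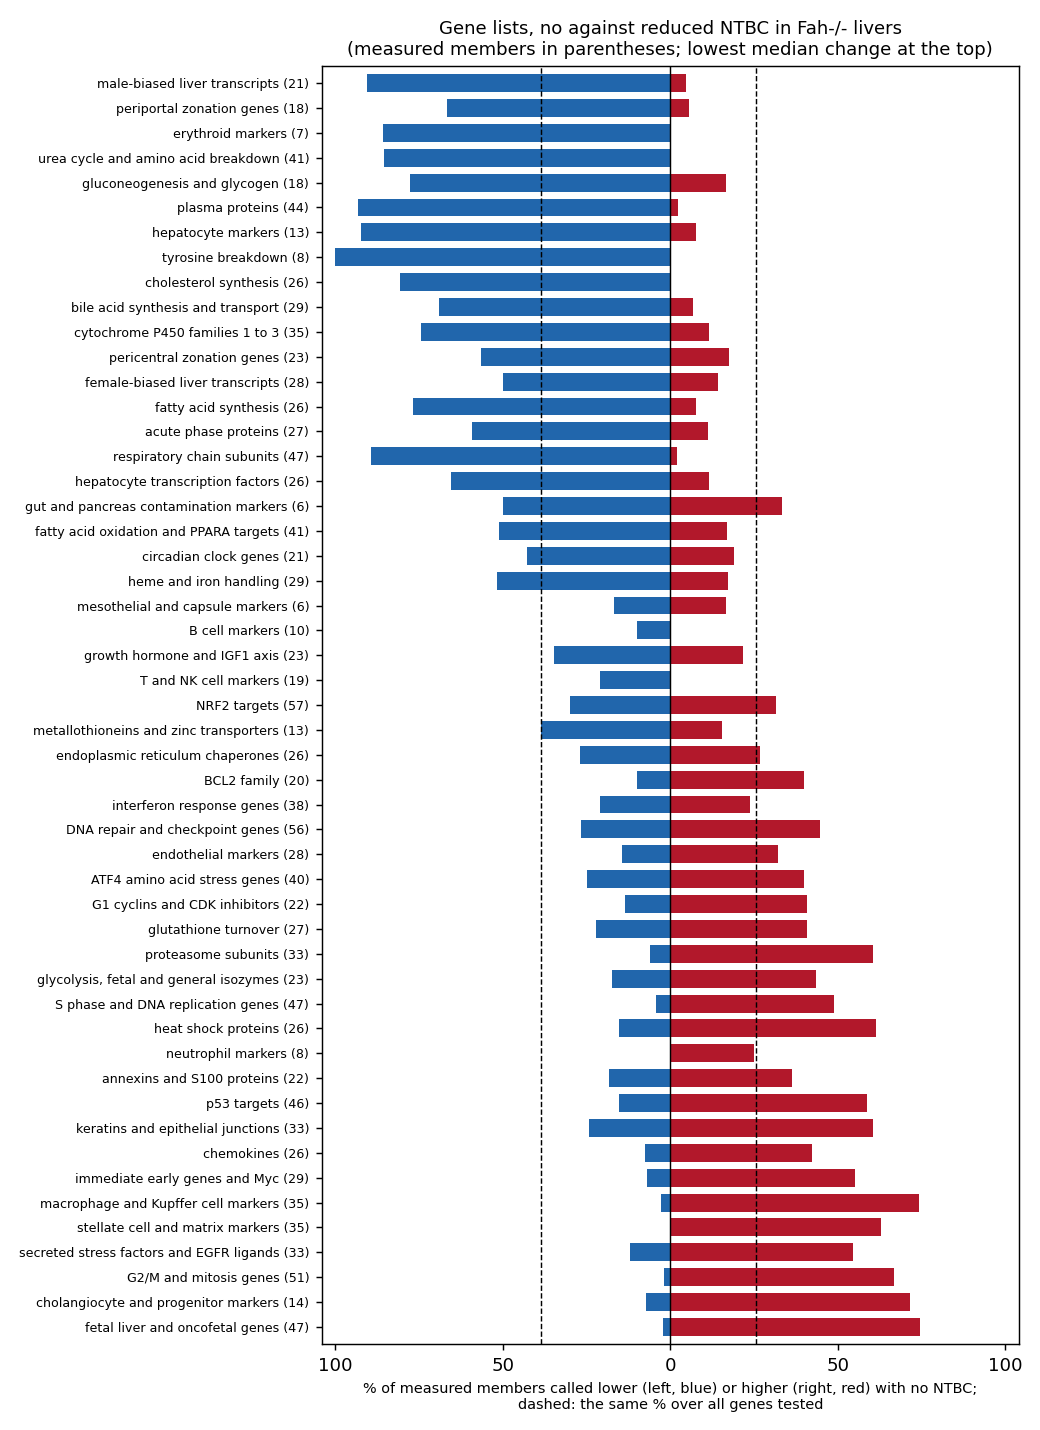
Share of the measured members of 51 gene lists called lower (blue, left) or higher (red, right) with no NTBC against reduced NTBC, ordered by median change with the lowest at the top. Dashed lines mark the shares over all genes tested, 38.5% lower and 25.6% higher; the metabolic and secretory liver lists lie beyond the left line and the fetal, cell cycle, matrix and macrophage lists beyond the right one.

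Fetal and oncofetal liver genes rose with no NTBC: 35 of 47 were called higher and 1 lower, with a median of 1.76 (1.04 with normexp). Afp, the fetal albumin relative alpha-fetoprotein, had levels of 8.19, 8.30, 8.33 and 8.24 with no NTBC, against 2.72, 2.33, 1.74 and 1.18 on the reduced dose and 1.35, 1.27, 1.30 and 0.82 on the full dose. It rose by 6.27 ± 0.56 (77.2-fold, limma adjusted p = 2.84e-09), and the reduced and full doses overlapped. Igf2, a fetal growth factor, had the largest rise of all genes with a symbol, at 6.17, 5.61, 5.34 and 6.38 with no NTBC and -5.15, -3.39, -4.79 and -4.31 on the reduced dose, where 1 of 4 arrays was above background, a difference of 10.28 ± 0.80 (limma adjusted p = 3.49e-10). H19, a noncoding RNA imprinted together with Igf2, stood at 3.51, 4.75, 3.29 and 5.10 with no NTBC and -2.89, -2.89, -2.58 and -3.20 on the reduced dose, and rose by 7.05 ± 0.67. With normexp the rises of Igf2 and H19 were 8.12 and 5.96. Neither gene differed by a call between reduced and full NTBC (limma adjusted p = 0.683 and 0.498). Gpc3, a membrane proteoglycan of fetal liver, was graded, at 2.04, 2.74, 2.23 and 2.47 with no NTBC, 1.12, 0.94, 1.34 and -0.79 on the reduced dose and -2.27, -3.06, -2.30 and -3.57 on the full dose. It rose by 1.72 ± 0.43 between reduced and no NTBC and by 3.45 ± 0.43 between full and reduced. Bex1 was not above background on any reduced array and was at least 17.9-fold higher with no NTBC.

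Epithelial and cytoskeletal genes supplied several of the largest rises. Krt20, a keratin of intestinal epithelium, was above background on no reduced array and at 2.74, 2.54, -0.11 and 2.01 with no NTBC, at least 81.8-fold higher (limma adjusted p = 2.89e-10). Such bounds set the mean with no NTBC against the lowest measurable level of the reduced arrays. Krt76 and the tight junction protein Cldn4 were at least 34.3-fold and 18.2-fold higher. The bounds hold for the processed signal alone. With normexp Krt20, Krt76, Cldn4 and Bex1 rose by 4.29, 3.36, 2.55 and 2.24 on the log2 scale, less than their bounds. Sprr1a, an envelope protein of stressed epithelia and neurons, had levels of 4.93, 4.98, 4.20 and 4.87 with no NTBC, against -1.51, -2.01, -3.08 and -2.78 on the reduced dose. Over keratins and epithelial junctions 20 of 33 rose and 8 fell (11 and 4 with normexp), and among annexins and S100 proteins 8 of 22 rose and 4 fell. S100a6, S100a11 and Anxa2 rose by 4.21 ± 0.42, 4.11 ± 0.25 and 3.92 ± 0.30.

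Targets of p53 rose in 27 of 46 cases and fell in 7, with a median of 0.69 (0.41 with normexp, where 3 fell). Cdkn1a, which encodes the cell cycle inhibitor p21, had levels of 4.25, 4.11, 4.37 and 4.19 with no NTBC, against 2.21, 0.65, 1.5 and 1.41 on the reduced dose and -1.17, -1.04, -1.68 and -1.89 on the full dose. It rose by 2.79 ± 0.42 between reduced and no NTBC (6.9-fold, limma adjusted p = 5.35e-06), after a step of 2.89 ± 0.42 between full and reduced. Mdm2, the p53 ubiquitin ligase, and Ccng1, cyclin G1, were graded in the same order of doses and rose by 1.45 ± 0.12 and 0.85 ± 0.20. A second Mdm2 probe, above background on all arrays of both doses, differed by 0.48 and was not tested alone. Psrc1, a spindle protein on the list, was at 2.73, 3.17, 3.35 and 2.48 with no NTBC and 1.07, -0.54, -0.34 and -1.45 on the reduced dose, a rise of 3.24 ± 0.57. Pmaip1 (Noxa), a BH3-only protein that starts apoptosis, was at 0.51, -0.19, -1.33 and 0.24 with no NTBC and -3.49, -3.72, -4.27 and -4.79 on the reduced dose, where 2 of 4 arrays were above background, a rise of 3.87 ± 0.38 (limma adjusted p = 1.00e-08). The rise of Pmaip1 was 2.19 with normexp. Gls2, which is also on the list of p53 targets, was the largest fall on it. Trp53 transcript levels overlapped, 0.62, 0.51, 1.06 and 0.81 with no NTBC and 0.57, 0.67, 1.06 and 1.21 on the reduced dose, and were not called (-0.13 ± 0.14, limma adjusted p = 0.442).

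Genes of the G2 and M phases rose in 34 of 51 cases and fell in 1, with a median of 1.6. Many of them were near background on the reduced dose, 28 of 51 were above it on all 8 arrays, and with normexp 12 were called higher, with a median of 0.62 (0.70 in the deposited values). With the second slide of no NTBC alone 15 were called higher. The promoters of such genes are known for a cell cycle homology region, TTTGAA, and for CCAAT boxes bound by NF-Y. In the RefSeq promoter table (build GRCm38.p6, 250 bases before to 50 after a start, both strands, any start of a gene) TTTGAA stood in 32 of 43 promoters of the list against 20.2% of 27025 genes, and CCAAT in 30 of 43 against 41.1%. Of the promoters of list members called higher 20 of 29 held TTTGAA, and of those not called 10 of 11, so most members of both kinds held it. For Cdk1, a kinase of mitotic entry, Cep55, which acts in abscission, and Mki67, the Ki-67 proliferation antigen, stretches of 60 bases upstream of the start, chosen to hold the motif, are shown with TTTGAA or its reverse complement in capitals and CCAAT not marked. Positions given with these genes are those of the bases shown, in GRCm38.p6.
Cdk1: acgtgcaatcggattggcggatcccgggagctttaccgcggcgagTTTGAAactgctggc
Cep55: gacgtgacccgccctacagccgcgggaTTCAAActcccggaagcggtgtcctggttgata
Mki67: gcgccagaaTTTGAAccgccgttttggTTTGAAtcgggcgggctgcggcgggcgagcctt

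Cdk1 (chr10:69352913-69352972, minus strand) had levels of -0.75, -1.72, -2.97 and -1.5 with no NTBC, against -5.03, -3.76, -4.48 and -4.85 on the reduced dose, where 1 of 4 arrays was above background. It rose by 2.79 ± 0.74 (limma adjusted p = 0.00214). With normexp its difference was 1.11 and was not called (limma adjusted p = 0.0835). Cep55 (chr19:38054981-38055040, plus strand) was not above background on the reduced dose and was at least 1.79-fold higher with no NTBC. With normexp its difference was 0.17 and the call was lost (limma adjusted p = 0.74). Mki67 (chr7:135716445-135716504, minus strand) was at 1.23, 0.30, -1.09 and 0.08 with no NTBC and -1.88, -1.33, -2.24 and -1.87 on the reduced dose, a rise of 1.96 ± 0.66 that lost the call without replicate 1 with no NTBC (limma adjusted p = 0.0129). On these genes, and on Tpx2 and Hmmr, which organise the spindle, replicate 1 with no NTBC was the highest or next to it. Tpx2, above background on 1 of 4 reduced arrays, rose by 3.60 ± 0.60 and Hmmr by 2.71 ± 0.61. With normexp these rises were 1.18 and 1.32. Ccnb1, cyclin B1, was above background on 3 of 4 arrays with no NTBC and on none of the reduced dose, and the groups overlapped. In S phase and replication 23 of 47 rose and 2 fell. Uhrf1, which maintains DNA methylation, and the helicase subunit Mcm2 rose by 2.63 ± 0.65 and 1.48 ± 0.27, while the probe assigned to the replication factor Mcm10 fell by 1.97 ± 0.22. The CDK inhibitor Cdkn2b rose by 2.76 ± 0.43. DNA repair and checkpoint genes were divided, 25 of 56 higher and 15 lower. With normexp 10 were higher. Rad51ap1 and Fanci, of recombination and crosslink repair, were at least 2.44-fold and 3.44-fold higher, and the checkpoint kinase gene Atm fell by 1.85 ± 0.17 (limma adjusted p = 2.93e-09). With normexp Rad51ap1 and Fanci lost the call (limma adjusted p = 0.538 and 0.307).

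Targets of NRF2 were divided: 18 of 57 rose and 17 fell, with a median of -0.07, and with quantile normalization 29 rose, 8 fell and the median was 0.48. Several were high at both doses. Cbr3, a carbonyl reductase, had levels of 7.29, 7.87, 8.14 and 7.37 with no NTBC, against 8.08, 7.56, 7.98 and 7.17 on the reduced dose and 0.38, 1.04, 1.38 and 1.02 on the full dose. It was not called between no and reduced NTBC (-0.03 ± 0.32, limma adjusted p = 0.94), where the arrays overlapped, and lay 6.74 ± 0.32 above full NTBC on the reduced dose. Nqo1, a quinone reductase, and Gclc, the catalytic subunit of glutathione synthesis, likewise overlapped between no and reduced NTBC (0.33 ± 0.20 and -0.23 ± 0.17) and lay above full NTBC on the reduced dose by 2.09 ± 0.20 and 1.64 ± 0.17. On the quantile scale Cbr3 and Gclc were 0.66 and 0.40 higher with no NTBC, and the second of these was called (limma adjusted p = 0.0257), as was Nqo1 (0.53, limma adjusted p = 0.0203).

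Other targets on the list rose further. Slc7a11, which imports cystine for glutathione, had levels of 4.08, 3.88, 4.51 and 4.02 with no NTBC, against 0.92, -0.56, 0.01 and -0.81 on the reduced dose, and was above background on none of the full-dose arrays. It rose by 4.23 ± 0.49 (18.8-fold, limma adjusted p = 1.14e-07). Ggt1, which breaks down extracellular glutathione, showed the same 3 steps, at 2.41, 2.42, 2.91 and 2.37 with no NTBC, -0.47, -1.12, -0.95 and -2.34 on the reduced dose and below background on full NTBC. Hmox1, heme oxygenase 1, rose by 2.09 ± 0.28, the glutathione peroxidase Gpx2 by 2.82 ± 0.60 and the reductase Ptgr1 by 4.03 ± 0.37. Abcc1, which exports glutathione conjugates, was high with no NTBC alone, at 0.34, -0.18, 0.04 and -0.06, against -2.94, -3.91, -3.19 and -3.10 on the reduced dose and -3.31, -2.87, -3.37 and -3.84 on the full dose. Over glutathione turnover 11 of 27 rose and 6 fell, with Gpx3, the secreted peroxidase, the largest rise at 4.36 ± 0.30. The antioxidant response element in the form TGACNNNGC stood in 14 of 53 promoters of the NRF2 list, against 14% of all, in 7 of the 16 called higher and 4 of the 16 called lower.

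The transcription factor ATF4 acts on amino acid response elements when amino acids are short or proteins misfold. Of its 40 measured target genes 16 rose and 10 fell. The element, searched as TGATGNAAN, stood in 13 of 33 promoters of the list, against 4.5% of all, in 5 of 12 called higher and in 4 of 8 called lower. Stretches of 60 bases upstream of the start are shown for 3 genes that rose (Asns, Slc7a11, Atf3), 1 that fell (Herpud1) and 1 that was not called (Fgf21), with the element or its reverse complement in capitals and positions as above.
Asns: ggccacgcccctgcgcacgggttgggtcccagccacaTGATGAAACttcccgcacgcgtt
Slc7a11: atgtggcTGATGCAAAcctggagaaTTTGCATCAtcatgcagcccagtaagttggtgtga
Atf3: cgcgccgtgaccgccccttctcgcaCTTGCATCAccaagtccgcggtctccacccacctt
Herpud1: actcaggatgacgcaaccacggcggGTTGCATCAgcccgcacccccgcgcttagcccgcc
Fgf21: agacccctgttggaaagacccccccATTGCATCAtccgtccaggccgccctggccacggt

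Asns (chr6:7693210-7693269, minus strand), asparagine synthetase, had levels of 5.33, 5.67, 6.02 and 5.50 with no NTBC, 3.87, 2.60, 2.76 and 3.62 on the reduced dose and 4.50, 4.13, 4.97 and 4.40 on the full dose. It rose by 2.41 ± 0.66 between reduced and no NTBC (limma adjusted p = 0.00292). Atf3 (chr1:191183410-191183469, minus strand), a stress transcription factor, was at 1.26, 0.77, 0.90 and 1.58 with no NTBC and 0.24, -1.87, -1.45 and -1.46 on the reduced dose, a rise of 2.26 ± 0.49. The bases shown for Slc7a11 are chr3:50443627-50443686, minus strand. Psat1 of serine synthesis, at 2.94, 2.55, 2.38 and 2.82 with no NTBC and 0.14, -2.06, -1.74 and -0.07 on the reduced dose, rose by 3.61 ± 0.43, and the amino acid carrier Slc1a5 by 2.50 ± 0.20. Trib3, a pseudokinase that is also an ATF4 target, moved in the opposite direction, at 1.74, 2.36, 2.28 and 2.97 with no NTBC and 3.85, 3.20, 3.60 and 4.40 on the reduced dose, a fall of 1.42 ± 0.27 (limma adjusted p = 8.48e-05). Herpud1 (chr8:94386291-94386350, plus strand), of protein breakdown at the endoplasmic reticulum, fell by 1.59 ± 0.20. Fgf21 (chr7:45615596-45615655, minus strand), a stress hormone of the liver, overlapped between no NTBC (2.08, 3.43, 3.46 and 1.95) and the reduced dose (4.22, 1.73, 3.50 and 3.81), and both lay above the full dose (0.23, -0.77, 0.64 and -1.69). Genes with this element in the window thus stood among those that rose, that fell and that were not called.

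Heat shock proteins rose in 16 of 26 cases and fell in 4, with a median of 0.50 (0.82 on the quantile scale). Hspb1, the small heat shock protein, had levels of 6.19, 5.65, 5.51 and 5.70 with no NTBC, against 2.51, 1.77, 2.79 and 2.50 on the reduced dose (10.4-fold higher, limma adjusted p = 1.41e-08). The inducible Hspa1a and Hsp90aa1 rose by 3.05 ± 0.22 and 1.37 ± 0.15. Chaperones of the endoplasmic reticulum were divided, 7 higher and 7 lower of 26, with quantile normalization 12 and 2, and with normexp 7 and 2. Without replicate 1 or 4 with no NTBC, or replicate 3 or 4 of the reduced dose, 4 were lower. Proteasome subunits rose in 20 of 33 cases by small amounts, Psmd8 by 0.81 ± 0.10 and Psmd14 by 0.72 ± 0.09. They rose in 30 cases on the quantile scale and in 10 with normexp. The metallothioneins Mt1 and Mt2, which bind zinc and copper, overlapped between no and reduced NTBC. Mt2 had levels of 7.18, 7.82, 7.64 and 7.24 with no NTBC, 8.10, 6.72, 7.31 and 7.77 on the reduced dose and 3.42, 3.60, 3.45 and 3.91 on the full dose, a difference of 3.88 ± 0.29 between reduced and full.

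Secreted stress and growth factors rose in 18 of 33 cases and fell in 4, with a median of 1.19. The median was 0.19 with normexp, where 12 rose, and 0.42 in the deposited values. Plaur, the urokinase receptor, had levels of 3.20, 1.97, 2.22 and 2.64 with no NTBC, against -2.51, -2.98, -3.47 and -3.04 on the reduced dose and -3.27, -3.35, -3.29 and -3.45 on the full dose. It rose by 5.51 ± 0.32 (45.5-fold, limma adjusted p = 4.53e-12). Plat, tissue plasminogen activator, rose by 5.29 ± 0.37 and the TWEAK receptor Tnfrsf12a by 3.51 ± 0.32. Gdf15, a stress hormone, overlapped, at 3.73, 3.51, 3.26 and 3.94 with no NTBC and 3.27, 2.56, 2.62 and 3.76 on the reduced dose, and was not called (limma adjusted p = 0.118). It was called higher with normexp, with quantile normalization, in the deposited values and without replicate 4 of the reduced dose, by 0.70 to 0.83 (limma adjusted p = 0.0169 to 0.0405). Bmp8b, a growth factor of the BMP family, was at 2.0, 1.86, 1.38 and 2.07 with no NTBC and above background on 1 of 4 reduced arrays, a difference of 7.64 ± 0.45. This was 4.05 with normexp and 3.92 in the deposited values, so its size depends on how the background was handled. Among immediate early genes 16 of 29 rose and 2 fell. Fosl1, a subunit of AP-1, rose by 3.92 ± 0.49, with 1 of 4 reduced arrays above background, and Myc by 1.31 ± 0.31. The rise of Fosl1 was 1.55 with normexp. Chemokines rose in 11 of 26 cases, among them the monocyte attractants Ccl2 and Ccl7, by 2.55 ± 0.68 and 4.05 ± 0.80, the second with 1 of 4 reduced arrays above background. The rise of Ccl7 was 1.24 with normexp. Over the chemokines the median was 0.84, and with normexp it was 0.006 and 9 rose. With the second slide of no NTBC alone 7 chemokines rose. Of 38 interferon response genes 9 were higher and 8 lower, both under the shares of all genes, and with normexp 5 and 5.

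**Figure D4:**
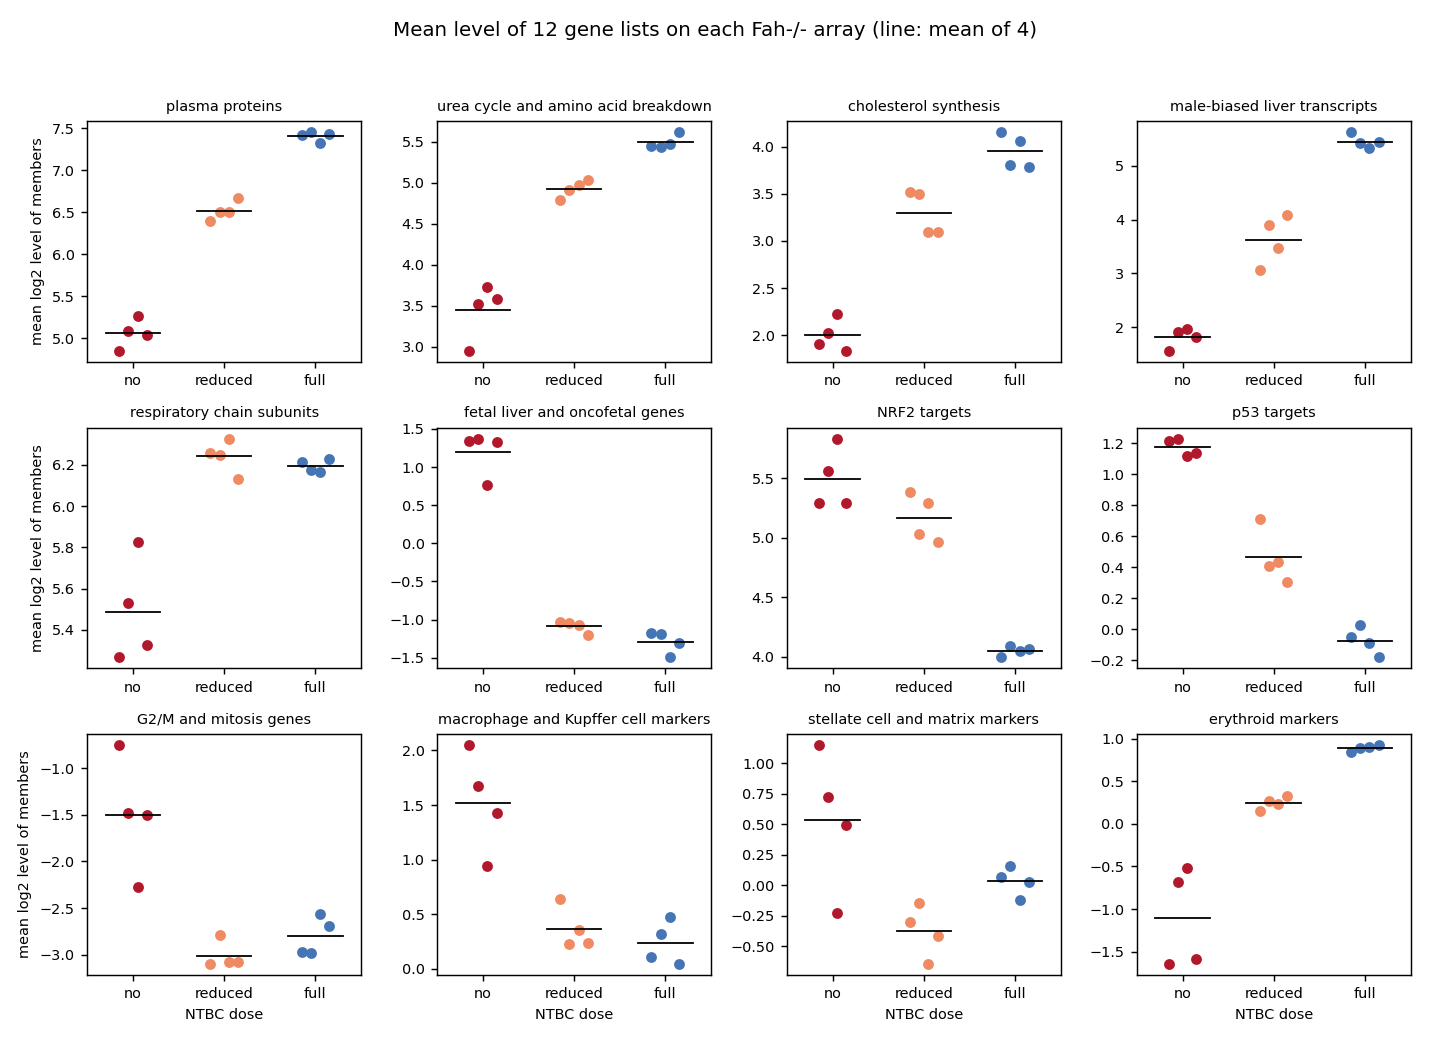
Mean log2 level over the measured members of 12 gene lists on each Fah-/- array with no, reduced and full NTBC (4 arrays a dose, line at the mean). NRF2 targets lie above full NTBC at both lower doses, while fetal liver genes are high with no NTBC alone; macrophage, matrix and mitosis lists are highest on replicate 1 with no NTBC and lowest of that group on replicate 3.

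Among cells that liver tissue can hold, markers of hepatocytes, macrophages, stellate cells, ducts and erythroid cells were mostly called in 1 direction. Markers of the other cell types were divided or called in few cases. The shares over all genes were 25.6% higher and 38.5% lower. In bulk RNA fewer cells of a type and less RNA per cell cannot be told apart. Of the hepatocyte markers 12 of 13 fell and 1 rose; their summed linear level was 778 to 1006 with no NTBC and 1796 to 1992 on the reduced dose, in units of the 75th percentile. All 13 were above background on all 8 arrays, and on the quantile scale 7 of them fell. Macrophage and Kupffer cell markers rose in 26 of 35 cases and fell in 1, with sums of 248 to 594 with no NTBC and 190.0 to 231 on the reduced dose. Without replicate 1 with no NTBC 17 were called higher, with the second slide of no NTBC alone 13, and with normexp 19. Marco, a scavenger receptor, was at 7.46, 3.96, 1.85 and 4.94 with no NTBC and 2.41, 0.79, 1.22 and 0.87 on the reduced dose, so replicate 1 was far up and replicate 3 lay among the reduced arrays. Cd68, a lysosomal macrophage marker, and Trem2, a receptor of lipid-laden macrophages, rose by 2.03 ± 0.42 and 3.84 ± 0.78. Stellate cell and matrix markers rose in 22 of 35 cases and none fell, with sums of 117 to 221 with no NTBC and 106 to 127 on the reduced dose. Without replicate 1 with no NTBC 11 were called higher, without replicate 3 of the reduced dose 13, and with the second slide of no NTBC alone 9. With normexp 15 were called higher. Col1a1 overlapped, at 2.77, 1.67, -0.91 and 1.20 with no NTBC and -0.24, 0.56, -2.01 and -1.06 on the reduced dose, and its call (limma adjusted p = 0.0188) was lost without replicate 1 with no NTBC or replicate 3 of the reduced dose. Postn, a matrix protein of activated fibroblasts, rose by 1.92 ± 0.43.

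Cholangiocyte and progenitor markers rose in 10 of 14 cases and fell in 1, with sums of 51.1 to 64.5 with no NTBC and 37.3 to 50.4 on the reduced dose. With normexp 5 rose. Krt19, a bile duct keratin, was at 0.39, 0.90, -1.49 and 0.66 with no NTBC, -3.48, -3.39, -3.56 and -3.25 on the reduced dose and -0.47, -0.64, -2.11 and -1.18 on the full dose, so it was lowest on the reduced dose. Epcam, an adhesion molecule of duct cells, was below background on the reduced dose and at least 3.47-fold higher with no NTBC. Its call was lost with normexp (limma adjusted p = 0.174). Endothelial markers were divided, 9 higher and 4 lower of 28, with sums of 119 to 137 with no NTBC and 103 to 121 on the reduced dose. Without replicate 1 with no NTBC 4 were higher, and without replicate 4 with no NTBC or replicate 1 of the reduced dose 5. Neutrophil markers rose in 2 of 8 cases (sums 2.4 to 3.79 with no NTBC and 1.65 to 5.89 on the reduced dose), T and NK cell markers were called lower in 4 of 19 (3.51 to 5.65 and 4.34 to 5.29), and B cell markers fell in 1 of 10 (1.41 to 1.99 and 1.74 to 2.64). These shares were not above those over all genes, and with normexp none of these calls was kept. Of the T cell markers called lower Cd27 was below background on all 8 arrays, so its call is not read as a fall, and Cd4 was below it on all arrays with no NTBC. Erythroid markers fell in 6 of 7 cases, with sums of 17.8 to 76 with no NTBC and 72.7 to 142 on the reduced dose. Gata1, the defining factor of that lineage, was below background on all arrays with no NTBC. On the reduced dose it was above background on 1 of 4 arrays, so its call lies near background in both groups. With normexp 2 of the erythroid markers fell, and on the quantile scale 4. Alas2, the erythroid enzyme of heme synthesis, was at -0.72, 0.06, 0.49 and -0.50 with no NTBC, 2.22, 2.70, 2.0 and 2.59 on the reduced dose and 5.04, 4.74, 5.01 and 4.81 on the full dose. Mesothelial markers gave 1 rise and 1 fall among 6 (sums 1.23 to 1.68 with no NTBC and 1.11 to 1.44 on the reduced dose), and markers of gut and pancreas 2 rises and 3 falls among 6 (7.55 to 10.2 and 6.81 to 10.54). Of the macrophage markers Cx3cr1 and Itgam, of the neutrophil markers Cxcr2, Mmp9 and Retnlg, of the duct markers Cldn4, Epcam and Prom1, and of the mesothelial markers Wt1 were below background on every reduced array. The part of these cells in the changes of the other lists was not tested.

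Set against full NTBC, the genes followed a few orders of dose, and these comparisons share their arrays. Cbr3, Mt2 and Fgf21 were called higher than on full NTBC at both lower doses and were not called between these. Cdkn1a, Mdm2, Slc7a11 and Ggt1 rose at both steps, and Hpd, Tat, Hal and C8b fell at both. Afp, Igf2, H19, Pmaip1, Plaur and Abcc1 were called higher with no NTBC than on the reduced dose and were not called between reduced and full (limma adjusted p = 0.266, 0.683, 0.498, 0.164, 0.423 and 0.904). Slco1a4, an organic anion carrier, Cyp2b9 and Cyp2b13 were highest on the reduced dose, and their differences of no minus full NTBC were not called (-0.95 ± 0.44, -0.45 ± 1.06 and -0.14 ± 1.07). For such sex-biased genes the SE includes the spread of the Fah-/- p21-/- arrays, which read as both sexes.

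The same step of dose in Fah-/- mice that also lack p53 gave a test of whether the response differed. Of the 20302 genes 1606 (7.91%) had a response in Fah-/- livers that differed from that in Fah-/- p53-/- livers, more positive in 889 and more negative in 717. Without replicate 2 of the Fah-/- reduced dose these were 566 and 449, without replicate 4 of Fah-/- with no NTBC 680 and 468, and with normexp 21 and 44. The Fah-/- p53-/- livers with no NTBC read as female on all 4 arrays, and the other 3 groups of this test as male, so the absence of p53 and sex cannot be told apart in it. Igf2 rose by 10.28 ± 0.80 in Fah-/- livers, against a difference of 0.84 ± 0.80 in Fah-/- p53-/- livers (difference of the responses 9.44 ± 1.13, limma adjusted p = 5.08e-05). For H19 the response was 7.05 ± 0.67 in Fah-/- and -0.01 ± 0.67 in Fah-/- p53-/- livers (7.07 ± 0.95, limma adjusted p = 0.000179). Ggt1 rose by 3.75 ± 0.38 in Fah-/- livers, against a difference of 0.65 ± 0.38 in Fah-/- p53-/- livers (limma adjusted p of the difference 0.00168). Cd24a, a progenitor marker, rose by 3.21 ± 0.40 in Fah-/- livers and by 5.78 ± 0.40 in Fah-/- p53-/- livers (limma adjusted p of the difference 0.00826). For Mdm2 the rise was 1.45 ± 0.12 in Fah-/- livers and 0.82 ± 0.12 in Fah-/- p53-/- livers (difference 0.63 ± 0.17, limma adjusted p = 0.0247, and 0.136 with normexp). These values are of the brightest Mdm2 probe, and a second probe differed by 0.48 in Fah-/- livers. For Cdkn1a the responses were 2.79 ± 0.42 and 3.25 ± 0.42, and their difference of -0.46 ± 0.60 was not called (limma adjusted p = 0.691).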

How the data were processed

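RNA of 28 mouse liver samples was hybridised to 1-colour Agilent whole genome arrays, per the labels. The authors deposited 1 scanner file per array with linear intensity values, made with Agilent Feature Extraction (10.7.3.1 per the file headers, 10.5 per the submitters' processing notes), which had corrected the background of the processed signal, and a table of log2 values per the deposited values' range, for which the sources used here name no method and which served as an alternative. Per column its median was 6.89 to 6.91, and it followed the scanner's median spot signal in the same direction (correlation 0.990 to 0.999 over probes). Samples were grouped by the labels' genotype and NTBC dose.

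Here the processed signal of each array was divided by its 75th percentile and log2 transformed. Control spots (1639, against 43379 others) and outlier spots (0.208% over all arrays) were left out, and spots of a probe averaged. Of 41174 probes 27508 were kept, those that every array of some group showed well above background. Accessions in the files, matched without versions to a RefSeq table, named 28462 probes, and 12712 had no symbol. The brightest probe stood for a gene. limma 3.58.1 in R 4.3.3 (lmFit, eBayes) was fitted to all 28 arrays with 7 group means and 21 residual degrees of freedom, with Benjamini-Hochberg adjustment over 20302 genes. The number of arrays limits the precision. On simulated data for no against reduced NTBC with 20302 genes, 71 of 100 genes changed by 1 on the log2 scale were called, 94 of 100 changed by 2, and 6 of 20102 unchanged ones. Far fewer genes were changed there than the 64.2% called here. The simulated noise was independent between arrays, with no effect of slide or scan day. These shares therefore describe the simulated setting and not the comparison itself.

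The genes, lists and tests were chosen with earlier results of these data known. Named were genes among the 15 largest rises and 15 largest falls with a symbol and groups that did not overlap, the up to 5 largest changes of each of 51 lists, and a fixed panel; the text names some of them, some genes the rule allows are not reported here, and markers below background were named after their values were seen. Alternatives were normexp with offset 50 (on median spot and background intensities, since the files hold no mean signal), quantile normalization, the deposited log2 values, the probe filter and probe choice, a 2-fold minimum, the fit of the compared groups alone, trended and robust variances, replicate and slide as blocks, each slide alone, and each array left out. Promoter sequences and symbols came from RefSeq tables of GRCm38.p6.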

Additional observations from a re-analysis of the deposited data

Results flagged for a closer look

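Single arrays that lay apart from the other 3 of their group were looked for in 328 groups of values, where chance gives about 5%. By the gap to the nearest array as a share of the group's range 12 were found. This is fewer than the chance share, so they are listed and not read as effects. With no NTBC replicate 1 was low for Fah (0.836; level -2.76 against -2.03 for the nearest), Amdhd1 (0.952) and Fbp1 (0.895; 5.52 against 6.08). Replicate 3 with no NTBC was low for Sprr1a (0.858) and Uhrf1 (0.835; -2.89 against -0.96), and high for Ghr (0.867) and Ggt1 (0.892). Replicate 2 with no NTBC was high for C9 (0.881) and replicate 4 high for Nnmt (0.888; 0.24 against -0.76). On the reduced dose replicate 4 was high for Fah (0.864) and low for Gls2 (0.935), and replicate 2 was high for Ddx58 (0.878).

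The response to no against reduced NTBC differed between Fah-/- and Fah-/- p53-/- livers for 23 of the named genes by limma, as differences of log2 responses. The response in Fah-/- livers was the more positive for Igf2 (9.44, adjusted p = 5.08e-05), H19 (7.07), Acp7 (4.07), Ggt1 (3.1), Bmp8b (2.32), Styk1 (1.75), Slc7a3 (1.35), Hspa1a (1.31), Bmp6 (0.989) and Mdm2 (0.632). It was the more negative for Nlrp12 (-5.61), Elovl3 (-4.67), Hsd3b5 (-3.97), Fgf21 (-3.32), Cd24a (-2.57), Slco1a4 (-2.38), Trib3 (-1.60), Cyp7b1 (-1.54), Decr1 (-1.31), Atm (-1.31), Sc5d (-1.23), Cidec (-1.15) and Ppara (-0.826), with adjusted p up to 0.0497. With normexp 6 of the 23 kept the call. For Elovl3, Hsd3b5 and Slco1a4, which are sex-biased in liver, and for the rest alike, genotype and sex cannot be told apart in this difference.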

How the results depend on the processing

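Between no and reduced NTBC the calls numbered 2818 higher and 3916 lower with normexp, 2359 and 3562 at a minimum of 2-fold, 5324 and 15346 with no filter on dim probes, and 5924 and 6036 in the deposited values. The filter's effect follows its construction, since it adds probes near the background. Of the genes called with normexp 6670 were among the 13033 first called, each in the same direction. Leaving out 1 array gave 4719 to 5001 higher and 7308 to 7712 lower. Calls higher with no NTBC made up 39.95% of all calls, 49.15% with quantile normalization, 49.53% in the deposited values and 25.76% with no filter. For the difference between genotypes normexp gave 21 genes more positive and 44 more negative, no filter 1277 and 3139, and leaving out 1 array 566 to 1125 and 449 to 861. The cause was not tested. Same-numbered arrays with no and reduced NTBC deviated from their group means with correlations of 0.04, 0.19, 0.20 and 0.08. Those of replicates 2, 3 and 4 were above all different-numbered ones, which ran from -0.21 to 0.045. Replicate 1 with no NTBC correlated as well with replicate 2 of the reduced dose. These small correlations do not settle whether replicate numbers pair the arrays. With a replicate block 5219 genes were higher and 7888 lower, and 954 and 840 differed between genotypes, and of the named genes none changed its call or direction between no and reduced NTBC. Slide as a random block gave 5075 and 7683. The 2-fold minimum was applied to the counts of all genes and not to single named genes. The filter for probes above background on all 8 arrays held 148 of the 182 named genes, and the others were not tested under it. Of 173 named genes called, 155 kept direction and call under every alternative that tested them. The call was lost under at least 1 by 17, of which 13 with normexp. The remaining one, Alb, changed sign, to 0.047 with quantile normalization and 0.050 in the deposited values. Differences near 0 that were not called changed sign as well. Cbr3 was 0.66 with quantile normalization, 0.46 in the deposited values, 0.057 with the second slide of no NTBC alone and -0.21 to 0.097 with 1 array left out, above 0 without replicate 1 or 4 with no NTBC or 1 or 3 of the reduced dose. Mt2 was 0.63 with quantile normalization, 0.50 in the deposited values, 0.056 with normexp, 0.025 with the first slide alone and -0.26 to 0.20 with 1 array left out, above 0 without replicate 1 or 4 of either dose. Gclc was 0.40 with quantile normalization and 0.29 in the deposited values, Mt1 0.0077 with quantile normalization and Trp53 0.057 with the second slide alone. The difference between genotypes for Slc7a3 was -0.039 with normexp. Of 51 named genes with several kept probes 50 moved one way on all of them, Ddx58 excepted.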

Other observations

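Among pericentral genes 13 of 23 fell and 4 rose, and among periportal genes 12 of 18 fell and 1 rose, with a median of -1.54. On the quantile scale the median of the periportal list was -0.97. Of the circadian clock genes 4 of 21 rose and 9 fell, and with normexp 1 and 6. Members of the BCL2 family, which govern apoptosis, rose in 8 of 20 cases and fell in 2. Genes of the G1 phase rose in 9 of 22 cases and fell in 3.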
